A study of Mus musculus with 24 samples.

Results

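Expression of 10 immediate early transcription factors was examined in 24 RNA libraries from monocytes of the mouse spleen. The genes were Fos, Fosb, Fosl2, Jun, Junb, Jund, Egr1, Egr2, Egr3 and Atf3. They were chosen as a gene family, with earlier results of these data known, and all 10 were found among the 23930 amplicons of the table. The mice were wild-type (WT), SLC29A3 -/- or SLC29A3 -/- TLR7 -/-, written here as Slc29a3-/- and Slc29a3-/- Tlr7-/-. Both mutants carry an edited Slc29a3 gene in every cell, made in C57BL/6 mice, and the second also carries an edited Tlr7 gene. From each genotype, CD11b+ cells free of Ly6G, SiglecF and NK1.1 were sorted into Ly6C hi and Ly6C low cells, the latter positive for Fcgr4, with no treatment given. The labels call the cells macrophages, and the study calls them monocytes. Each of the 6 groups held 4 libraries. Age, sex and whether a Ly6C hi and a Ly6C low library of the same number came from the same mouse are not given in the sources used here, so P values measure the spread between these libraries.

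Slc29a3 encodes a transporter that moves nucleosides out of lysosomes, and Tlr7 encodes an endosomal sensor of RNA and nucleosides. Fos and Jun family proteins pair into the dimeric factor AP-1, and Atf3 is a related leucine zipper protein that can pair with Jun. Egr1, Egr2 and Egr3 are zinc finger factors. Many of these genes are transcribed within minutes of growth factor signals, Toll-like receptor signals or cell stress, with no new protein needed, and their RNA is short-lived.

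Values are RPM, the reads of an amplicon scaled to a common library total, of a single short amplicon per gene, so levels were compared between libraries and not between genes. Depth inferred from the step between low values was 12311085 to 14572025 reads per library, and a count of 3 reads corresponded to 0.206 to 0.244 RPM. WT replicates 1 to 3 of both subsets carried sequencing barcodes 11 to 16. WT replicate 4 carried barcode 29 in Ly6C hi cells and 35 in Ly6C low cells, within the range of the mutant libraries (barcodes 24 to 46), and is therefore shown apart throughout. The 4 measured Ly6C hi monocyte markers summed to 2319 to 6768 RPM in Ly6C hi and 13.6 to 269 RPM in Ly6C low libraries, and the 6 Ly6C low markers to 6169 to 12589 RPM in Ly6C low and 1257 to 3257 RPM in Ly6C hi libraries. The Slc29a3 amplicon was read in mutant and WT libraries alike and did not check the genotypes, which rest on a short insertion and, for Tlr7, a short deletion.

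The chief feature of the data was a separation within the WT group. Fos, Fosb, Jun, Junb, Egr1 and Atf3 stood far higher in WT replicates 1 to 3 than in the other 9 libraries of the same subset, in both subsets, and WT replicate 4 lay near the mutants. This holds for 6 of the 10 genes in both subsets with no overlap. Fosl2 and Jund did not show it, and Egr2 and Egr3 showed it in Ly6C hi cells.

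**Figure D1:**
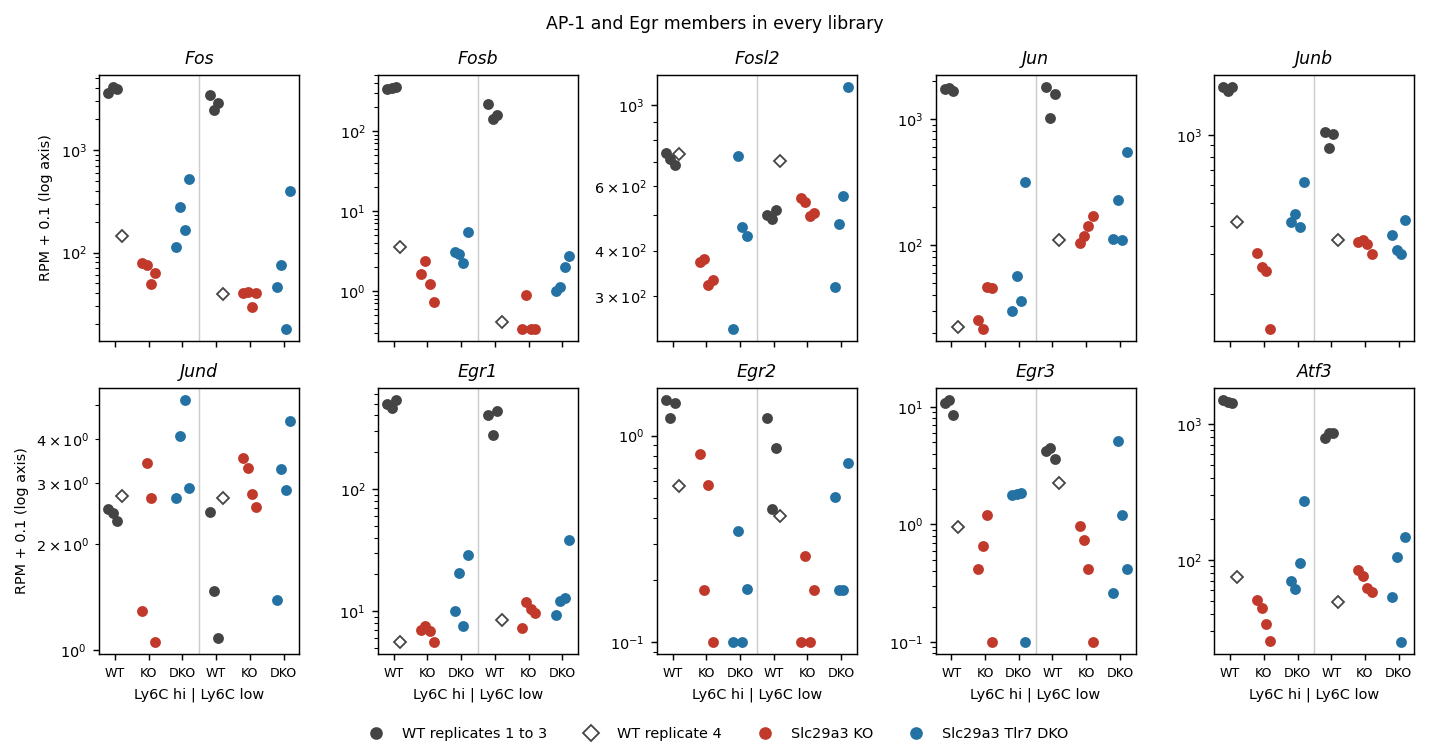
RPM plus 0.1 of the 10 genes on a log axis in each of the 24 libraries, by genotype, with Ly6C hi libraries left of the line and Ly6C low libraries right of it. Filled circles are libraries, and the open diamond is WT replicate 4. For Fos, Fosb, Jun, Junb, Egr1 and Atf3 the 3 filled WT circles sit above all other libraries in both subsets, and the diamond sits with the mutants.

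Fos encodes the founding Fos family member of AP-1 and lies on chromosome 12 (85473890 to 85477273, plus strand, mm10). In Ly6C hi cells it stood at 3572, 4128 and 3879 RPM in WT replicates 1 to 3 and at 145 RPM in WT replicate 4. The Slc29a3-/- libraries had 79.5, 75.2, 49.8 and 62.6 RPM and the Slc29a3-/- Tlr7-/- libraries 112, 279.9, 166 and 520.1 RPM. All 4 Slc29a3-/- values were thus below all WT and all double mutant values. Among Ly6C low libraries, Fos stood at 3399, 2446 and 2870.2 RPM in WT replicates 1 to 3 and at 38.9 RPM in WT replicate 4. The Slc29a3-/- libraries had 40.2, 41.3, 29.6 and 40.6 RPM, and the double mutants 46.5, 75.8, 17.994 and 401 RPM. There, WT replicate 4 lay inside the range of Slc29a3-/- libraries.

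Fosb, a second Fos family member, had 337, 342 and 357 RPM in Ly6C hi WT replicates 1 to 3 and 3.43 RPM in WT replicate 4. Slc29a3-/- libraries had 1.51, 2.29, 1.11 and 0.635 RPM, and double mutants 3.004, 2.76, 2.14 and 5.37 RPM. WT replicates 1 to 3 thus stood apart from all other libraries. The Ly6C low WT values were 215, 139 and 156 RPM in replicates 1 to 3 and 0.307 RPM, about 4 reads, in replicate 4. The mutants there lay between 0.237 and 2.64 RPM, so Fosb outside WT replicates 1 to 3 was close to the detection limit.

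Jun, the main partner of Fos, had 1736, 1763 and 1684 RPM in Ly6C hi WT replicates 1 to 3 and 22.3 RPM in WT replicate 4. Slc29a3-/- libraries had 25.1, 21.5, 46.6 and 45.7 RPM, and double mutants 29.8, 56.7, 35.6 and 319 RPM. Ly6C low WT replicates 1 to 3 had 1818, 1028 and 1579 RPM and WT replicate 4 had 109.5 RPM. Outside WT replicates 1 to 3 every Ly6C low library had more Jun than the library of the same genotype and number in Ly6C hi cells, with 104 to 169 RPM in Slc29a3-/- and 111 to 554 RPM in double mutant cells.

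Junb, a Jun family member with weaker activity than Jun on many promoters, differed less. It had 1624, 1549 and 1622 RPM in Ly6C hi WT replicates 1 to 3 and 413 RPM in WT replicate 4. Slc29a3-/- libraries had 303, 263, 254 and 141 RPM, all below the double mutants at 416, 448, 394 and 621 RPM. Junb in Ly6C low WT replicates 1 to 3 was at 1031, 874 and 1008 RPM, WT replicate 4 had 345 RPM, and the 8 mutant libraries had 301 to 425 RPM.

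Egr1, a zinc finger factor on chromosome 18, had 497, 464 and 536 RPM in Ly6C hi WT replicates 1 to 3 and 5.54 RPM in WT replicate 4. Slc29a3-/- libraries had 6.93, 7.43, 6.82 and 5.48 RPM, below the double mutants at 9.86, 20.6, 7.52 and 28.6 RPM. Ly6C low WT replicates 1 to 3 had 403, 279 and 433 RPM and WT replicate 4 had 8.43 RPM, with 7.24 to 11.7 RPM in Slc29a3-/- and 9.21 to 38.1 RPM in double mutant libraries. Atf3, a stress-induced factor that restrains Toll-like receptor responses, had 1502, 1463 and 1439 RPM in Ly6C hi WT replicates 1 to 3 and 74.4 RPM in WT replicate 4. Slc29a3-/- libraries had 50.2, 44.1, 33.9 and 25.3 RPM, and double mutants 70.5, 60.9, 95.5 and 273 RPM. The Ly6C low values of Atf3 were 792, 861 and 857 RPM in WT replicates 1 to 3, 49.0 RPM in WT replicate 4, 57.8 to 84.9 RPM in Slc29a3-/- and 24.8 to 148 RPM in double mutant libraries.

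The mean of WT replicates 1 to 3 was above WT replicate 4 by 26.6-fold for Fos, 77.5-fold for Jun, 90.1-fold for Egr1, 19.7-fold for Atf3 and 3.87-fold for Junb in Ly6C hi cells. The Ly6C low ratios were 74.6 for Fos, 13.5 for Jun, 44.1 for Egr1, 17.1 for Atf3 and 2.81 for Junb. With 1 library on one side, these ratios carry no test. Barcode, depth and these gene levels moved together, and whatever else set those 6 libraries apart cannot be told apart from them.

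The 5 promoters below belong to genes that moved together in this way. They are the 250 bases before the RefSeq start site on GRCm38.p6, 5' to 3' along the gene, and are shown because cyclic AMP and AP-1 type elements are known regulators of this family. Capitals mark TGACG, the core of a cyclic AMP response element, on either strand, and GCGNGGGCG, the Egr consensus. The full elements TGACGTCA, which contains TGACG, and TGANTCA, the AP-1 site, and the CArG box bound by serum response factor were searched as well. None of these 3 exact patterns occurred in the 5 windows. Near matches, such as tgacatca in the Jun window, and bases further than 250 from the start site were not searched. The search thus does not show that these promoters lack such elements. The windows lie at chr12:85473640-85473889 on the plus strand for Fos, chr7:19310046-19310295 on the minus strand for Fosb, chr4:95052223-95052472 on the minus strand for Jun, chr8:84978749-84978998 on the minus strand for Junb and chr1:191183334-191183583 on the minus strand for Atf3.
Fos: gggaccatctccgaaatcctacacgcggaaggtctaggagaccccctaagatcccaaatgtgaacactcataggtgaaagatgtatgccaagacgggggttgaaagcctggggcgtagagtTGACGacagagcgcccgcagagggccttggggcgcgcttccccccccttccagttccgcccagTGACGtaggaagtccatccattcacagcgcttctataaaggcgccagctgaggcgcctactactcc
Fosb: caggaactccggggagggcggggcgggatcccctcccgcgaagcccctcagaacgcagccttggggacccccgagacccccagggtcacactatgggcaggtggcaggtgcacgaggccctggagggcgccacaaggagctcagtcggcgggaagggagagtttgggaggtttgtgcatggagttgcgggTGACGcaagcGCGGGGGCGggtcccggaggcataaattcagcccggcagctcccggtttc
Jun: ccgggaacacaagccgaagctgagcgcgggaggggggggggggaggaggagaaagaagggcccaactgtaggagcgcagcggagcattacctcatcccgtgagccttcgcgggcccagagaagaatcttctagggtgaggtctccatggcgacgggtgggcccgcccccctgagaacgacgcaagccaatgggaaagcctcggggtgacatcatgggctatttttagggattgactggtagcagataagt
Junb: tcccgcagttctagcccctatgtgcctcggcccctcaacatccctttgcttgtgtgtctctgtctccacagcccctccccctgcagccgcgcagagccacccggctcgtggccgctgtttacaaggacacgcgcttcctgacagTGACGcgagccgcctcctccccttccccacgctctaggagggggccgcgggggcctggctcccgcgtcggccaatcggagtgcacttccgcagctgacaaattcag
Atf3: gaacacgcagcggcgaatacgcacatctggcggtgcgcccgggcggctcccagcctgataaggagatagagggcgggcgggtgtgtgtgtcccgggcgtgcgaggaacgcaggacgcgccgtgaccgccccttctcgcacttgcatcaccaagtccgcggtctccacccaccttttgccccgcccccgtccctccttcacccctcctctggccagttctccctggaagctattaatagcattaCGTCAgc

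TGACG, read on either strand, was present in the Fos window at 2 places and in those of Fosb, Junb and Atf3, but not of Jun. It was present in 17.8% of the 32807 distinct RefSeq windows of that length. The Fosb window also held GCGNGGGCG, which was in 4.70% of windows. The share of all windows was 6.75% for TGANTCA, 1.55% for TGACGTCA and 1.47% for the CArG box. Of the members not printed, Fosl2 held GCGNGGGCG, Egr2 held a CArG box at 4 and TGACG at 3 of its 5 start sites, and Jund held none of the motifs. The 3 Egr2 windows with TGACG overlap one another and hold the same TGACG matches and the same CArG box. No window of Egr1 or Egr3 was searched.

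Fosl2, a Fos relative that is induced more slowly, behaved differently. In Ly6C hi cells all 4 WT libraries were close together at 737, 711, 685 and 733 RPM, and all 4 Slc29a3-/- libraries were lower at 373, 380.0, 321 and 333 RPM. The double mutants spread from 245 to 723 RPM and overlapped both. Its Ly6C low values were 488 to 517 RPM in WT replicates 1 to 3 and 704 RPM in WT replicate 4, with Slc29a3-/- libraries at 497 to 558 RPM and double mutants at 318 to 1121 RPM.

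Egr3, a relative of Egr1, had 10.6, 11.3 and 8.47 RPM in Ly6C hi WT replicates 1 to 3 and at most 1.74 RPM in the other 9 libraries. Its highest Ly6C low value, 5.003 RPM, was in a double mutant library, and WT replicates 1 to 3 had 3.51 to 4.32 RPM. Egr2 never exceeded 1.39 RPM, and its highest values were again in WT replicates 1 to 3. Jund, usually a steadily expressed family member, stood between 0.953 and 5.07 RPM in all libraries, so its amplicon gave few reads and small differences were not detectable at this depth.

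The comparison of Slc29a3-/- with WT asks how loss of the transporter changed these genes. Differences were tested with limma on log2(RPM + 1) over every gene that reached 1 RPM in 4 or more libraries of the subset, a filter that 9 of the 10 members passed in each subset. Egr2 did not pass. Calls needed a change of more than 1.5-fold together with P under 0.05 before adjustment, and a stricter call needed a Benjamini-Hochberg adjusted P under 0.05. The first thresholds follow the study's methods. Passing the filter could rest on WT replicates 1 to 3 and 1 more library, so counts over the 9 genes describe those genes only.

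In Ly6C hi cells 8 of 9 members were lower in Slc29a3-/- than in WT, and all 8 also had an adjusted P under 0.05, against 17.3% of all 10561 genes called lower, and 14.3% with an adjusted P. Fos was lower by a log2 difference of -4.67 (95% confidence interval -6.44 to -2.91, adjusted P = 0.00128), Fosb by -5.66 (-7.87 to -3.44), Egr1 by -4.47 (-6.70 to -2.24), Atf3 by -4.20 (-5.84 to -2.55) and Jun by -4.12 (-6.53 to -1.71). Junb had -2.30 (-3.09 to -1.50), Egr3 -2.30 (-3.43 to -1.16) and Fosl2 -1.03 (-1.52 to -0.54). Jund, at -0.26 (-0.85 to 0.34), was not called. Of all called genes 35.2% were higher, and 49.2% with TMM scaling, which moved the median of all genes from -0.14 to -0.01; the 8 members were lower with either. The groups did not overlap for Fos, Fosb, Fosl2, Junb and Atf3, which is 5 of 9, against 33.7% of all genes in either direction.

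These calls rested on which WT libraries were used. When WT replicate 4 stood alone for WT, whose spread is then taken from the other groups, 2 of 9 members were lower, against 8.11% of all genes called lower. They were Fosl2, at -1.06 (-1.94 to -0.18), and Junb, at -0.84 (-1.63 to -0.04), with adjusted P = 0.22 and 0.28. Fos had -1.13 (-2.41 to 0.14), Fosb -0.94 (-2.02 to 0.15) and Atf3 -0.98 (-2.33 to 0.37). The sign turned for Jun, at 0.54 (-1.50 to 2.57), and for Egr1, at 0.22 with an interval that spanned 0. Without WT replicate 4 the Fos difference was -5.85.

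**Figure D2:**
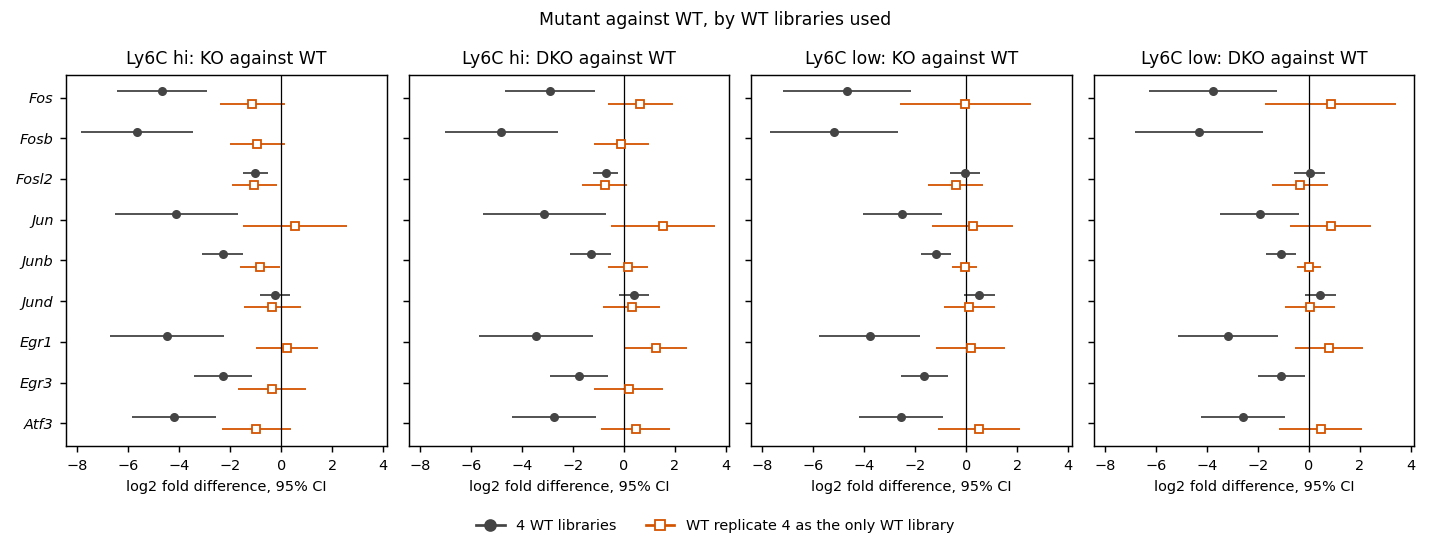
Log2 fold difference with its 95% confidence interval for the 9 tested members in the 4 comparisons of a mutant with WT (KO, Slc29a3-/-; DKO, Slc29a3-/- Tlr7-/-). Circles use 4 WT libraries and open squares WT replicate 4 as the only one; Fosb and Egr3 have no square in Ly6C low cells because they did not pass the filter there. Most circles lie left of 0, and for Fos, Jun, Junb, Egr1 and Atf3 every square lies nearer to 0 than its circle.

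In the same Ly6C hi comparison, neutrophil genes moved with genotype, and their part in the result was not tested. The 8 listed genes, among them Ly6g and Mpo, summed to 39130.2 to 75320 RPM in Slc29a3-/- libraries, 17367 to 20028 RPM in WT replicates 1 to 3 and 12343 RPM in WT replicate 4, and 7 of the 8 were called higher and 1 lower. NK cell genes summed to 344 to 389 RPM in WT replicates 1 to 3, 92.1 RPM in WT replicate 4 and 17.2 to 33.8 RPM in Slc29a3-/- libraries, with all 3 called lower. The 2 measured T cell genes summed to 70.2 to 74.5 RPM in WT replicates 1 to 3, 10.8 RPM in WT replicate 4 and at most 5.85 RPM in Slc29a3-/- libraries, and the dendritic cell genes (3 plasmacytoid, 4 conventional) were called lower too. In such bulk samples, fewer cells of a type and less RNA per cell cannot be told apart.

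In Ly6C low cells 7 of 9 members were lower in Slc29a3-/- than in WT, 5 of them with an adjusted P under 0.05. Of all 10317 genes, 7.05% were called lower and 2.53% with an adjusted P. Fosb and Egr3, which are in both counts, passed the filter only with WT replicates 1 to 3 included. Their calls are thus partly set by that selection. Fosb had a log2 difference of -5.20 (-7.70 to -2.70), Fos -4.68 (-7.20 to -2.16), Egr1 -3.80 (-5.77 to -1.82), Egr3 -1.65 (-2.57 to -0.73) and Junb -1.19 (-1.78 to -0.59). Jun, at -2.52, and Atf3, at -2.56, passed only the unadjusted threshold. Fosl2 had -0.05 (-0.66 to 0.55) and Jund 0.51 (-0.10 to 1.12). Against WT replicate 4 alone, 0 of the 7 members still tested were called, at either the unadjusted or the adjusted threshold in limma, against 6.97% of all genes, and Fos had -0.05 (-2.62 to 2.52). The neutrophil genes summed to 516 to 1196 RPM in WT replicates 1 to 3 of this subset, 29.3 RPM in WT replicate 4 and 10.7 to 94.4 RPM in Slc29a3-/- libraries, with 5 of 5 tested called lower. NK cell genes (2 of 3) and conventional dendritic cell genes (3 of 4) were called lower too, and both tested erythroid genes were called higher, their summed level being 0.561 to 1.24 RPM in WT replicates 1 to 3, 4.98 RPM in WT replicate 4 and 34.0 to 39.6 RPM in Slc29a3-/- libraries. The part of these cell markers was not tested.

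The double mutant was compared with WT in the same way, and both comparisons share the WT libraries. In Ly6C hi cells 8 of 9 members were lower, against 9.44% of all genes. Only Fosb had an adjusted P under 0.05, against 1.11% of all genes, at -4.81 (-7.02 to -2.59, adjusted P = 0.043). Fos had -2.89 (-4.66 to -1.13), Egr1 -3.44 (-5.67 to -1.20), Jun -3.13 (-5.54 to -0.71) and Atf3 -2.75 (-4.40 to -1.10). In Ly6C low cells 7 of 9 were lower, against 14.6% of all genes, and 4 of them (Fosb, Junb, Egr1 and Atf3) had an adjusted P under 0.05, against 6.03%. Fosb and Egr3, both among the 7, again passed the filter there only with WT replicates 1 to 3 included. When WT replicate 4 stood alone for WT, 1 member was called in Ly6C hi cells, against 2.07% of all genes, and it was higher: Egr1, at 1.25 (0.03 to 2.47, adjusted P = 0.999). In Ly6C low cells 0 of 7 were called, at either threshold, against 9.62% of all genes. Other markers moved in these comparisons as well, and their part was not tested. The double mutant had both T cell genes, 2 of 3 NK cell genes and 4 of 8 neutrophil genes called lower and 2 neutrophil and 3 of 5 heat shock genes called higher in Ly6C hi cells. It had 5 of 5 neutrophil, 3 of 3 NK cell and 2 of 2 T cell genes called lower in Ly6C low cells.

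The comparison of Slc29a3-/- with Slc29a3-/- Tlr7-/- cells asks which changes depended on Tlr7, and its direct contrast uses no WT value. In Ly6C hi cells all 9 tested members had a negative log2 difference, that is, lower values in Slc29a3-/- cells. The median over all genes was negative too, at -0.12, and -0.0013 with TMM scaling. The share of all genes with a negative difference is not given here, and the intervals of the members not called spanned 0. Fos at -1.78 (-3.55 to -0.02), Junb at -0.997 (-1.79 to -0.20) and Jund at -0.66 (-1.25 to -0.07) were called, against 11.9% of all genes called lower, and 0 of 9 had an adjusted P under 0.05 in limma, against 8.22%. Jund had few reads, with 0.953 to 3.32 RPM in Slc29a3-/- and 2.62 to 5.07 RPM in double mutant libraries. Its groups overlapped, and it was not called without WT replicates 1 to 3. Of all called genes 46.8% were higher, and 60.1% with TMM scaling, under which 1 member was called. TMM scaling called 888 of 10549 genes lower and 1336 higher. The WT libraries still entered the estimate of the spread. Without WT replicates 1 to 3, a choice made after seeing the data, 5 of 9 members were lower, against 11.4% of all genes called lower: Fos (adjusted P = 0.0082), Junb (0.0138), Atf3 (0.0285), Egr1 (0.0708) and Fosb (0.0906). Their differences were -1.78, -0.997, -1.45, -1.03 and -0.85. The groups of 4 did not overlap for Fos, Junb, Egr1 and Atf3, against 21.3% of all genes in either direction.

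**Figure D3:**
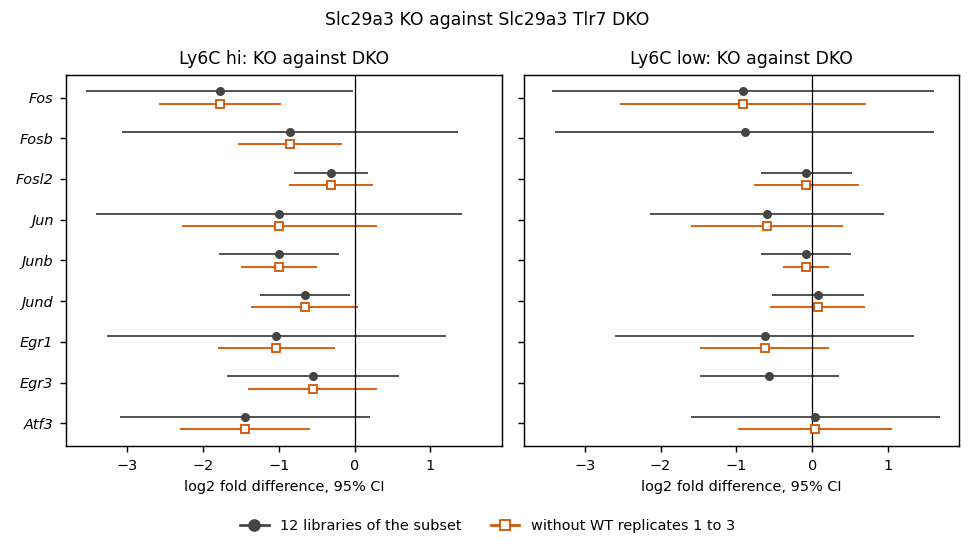
Log2 fold difference of Slc29a3-/- (KO) from Slc29a3-/- Tlr7-/- (DKO) with its 95% confidence interval, in Ly6C hi (left) and Ly6C low cells (right). Circles come from the fit of 12 libraries and open squares from the fit without WT replicates 1 to 3. In Ly6C hi cells all points lie left of 0, as does the median over all genes (-0.12 in the fit of 12 libraries). For Fos, Junb, Egr1, Fosb and Atf3 the interval of the square does not reach 0.

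Single libraries moved this count. Leaving out Ly6C hi WT replicate 4 gave 6 calls, leaving out Slc29a3-/- replicate 4 gave 0, leaving out Slc29a3-/- replicate 1 or double mutant replicate 2, 3 or 4 gave 1 each, and every other omission gave 2 to 4. The share of all genes called in these refits is not given here, so these counts are no result about the members. Double mutant replicate 4 had the highest Fos, Jun, Junb, Egr1 and Atf3 of its group in both subsets. Without it, the Ly6C hi double mutants had a mean of 186 RPM Fos (SD 85.7, n = 3) and 40.7 RPM Jun (SD 14.2, n = 3). The heat shock genes, of which 5 of 10 listed were in the table, summed to 384, 727, 783 and 2601 RPM in double mutant replicates 1 to 4 of Ly6C hi cells, to 200.5 to 453 RPM in Slc29a3-/- libraries and to 268 to 395 RPM in WT libraries. Hspa1a, the inducible HSP70 gene, reached 889 RPM in replicate 4, against 4.45 to 40.5 RPM in WT and Slc29a3-/- libraries of that subset. Whether these genes bear on the members was not tested. All 8 neutrophil genes were called higher in Slc29a3-/- than in double mutant Ly6C hi cells, and the double mutant sums lay between 5643 and 20209 RPM. Dendritic cell genes were called lower, 3 of 3 plasmacytoid and 4 of 4 conventional, and the conventional ones summed to 9.85 to 14.8 RPM in Slc29a3-/- and 50.04 to 67.3 RPM in double mutant libraries. The part of these markers was not tested.

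In Ly6C low cells 0 of 9 members were called between the 2 mutants at either threshold in limma, or at an unadjusted P under 0.05 alone, against 13.7% of all genes. Fos had -0.91 (-3.44 to 1.61), Egr1 -0.63 (-2.60 to 1.34) and Atf3 0.04 (-1.60 to 1.68). Junb, with the narrowest interval, had -0.08 (-0.67 to 0.51). Whether the mutants differed more in Ly6C hi than in Ly6C low cells was tested as an interaction over all 24 libraries, in which 0 of 10 members were called or had an unadjusted P under 0.05 in limma, against 22.6% of all genes called. Egr2 passed the filter of the fits of 24 libraries only with WT replicates 1 to 3 included. Counts over 10 members, here and below, are thus partly set by that selection. Without WT replicates 1 to 3, Junb (-0.92, -1.52 to -0.31) and Atf3 (-1.48, -2.88 to -0.09) were called, with adjusted P = 0.066 and 0.19 in limma. These are 2 of 9 members tested, near the 20.4% of all genes called, and are no result about these genes.

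The Slc29a3-/- difference from WT was compared between Ly6C hi and Ly6C low cells by an interaction term. It called 2 of 10 members, Fosl2 and Junb, which is near the 20.2% of all genes called and is no result about these genes. The difference of the log2 differences was -0.97 (-1.77 to -0.18, adjusted P = 0.12) for Fosl2 and -1.11 (-2.15 to -0.08, adjusted P = 0.18) for Junb, and neither passed the adjusted threshold. Both calls were lost with TMM or RLE scaling and when WT replicate 4 stood alone for WT. For the double mutant against WT, 0 of 10 members were called in the interaction or had an unadjusted P under 0.05 in limma, against 7.80% of all genes called.

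Ly6C hi and Ly6C low cells of the same genotype were then compared. In the fit of all 24 libraries 0 of 10 members were called at either threshold in WT, Slc29a3-/- or double mutant cells, against 29.3%, 37.6% and 31.6% of all genes. Egr2 was again among the 10 only through WT replicates 1 to 3. At an unadjusted P under 0.05, Fosl2 in Slc29a3-/- cells was the only one, at -0.58. The intervals were wide, and Fos in WT had 0.78 (-1.51 to 3.08). WT libraries of the same number correlated in their deviations from the group mean at 0.259 to 0.619. Among replicates 1 to 3, libraries of different number correlated at up to 0.323 as well, so pairing by number was not shown. With genotype and replicate number as a block, 4 of 10 members were higher in Ly6C hi WT cells, against 19.8% of all genes called higher: Fos, Fosb (1.22), Junb and Atf3.

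Within Slc29a3-/- cells, Jun had 21.5 to 46.6 RPM in Ly6C hi and 104 to 169 RPM in Ly6C low cells, and Fos had 49.8 to 79.5 RPM in Ly6C hi and 29.6 to 41.3 RPM in Ly6C low cells. Subsets did not overlap for 4 of 10 members (Jun, Fos, Fosl2 and Atf3), fewer than the 48.7% of all genes without overlap, and neither Jun nor Fos passed the test over 24 libraries. Without WT replicates 1 to 3 in the fit, Jun was called at -1.96 (-3.21 to -0.71, adjusted P = 0.014) and Fosb at 0.77 (0.15 to 1.38, adjusted P = 0.044), against 37.3% of all genes, and Fos, at 0.79 (-0.53 to 2.11), was not. Fosb had only 0.237 to 0.800 RPM in Ly6C low Slc29a3-/- libraries, close to the detection limit, and its subsets overlapped. In double mutant cells the same fit called Jun at -1.56 (-2.82 to -0.31), Fos at 1.66 (0.34 to 2.98) and Fosb at 0.72 (0.11 to 1.34). None of them had an adjusted P under 0.05 in limma. These are 3 of 9 members tested, near the 31% of all genes called, and are no result about these genes.

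Other genes of the pathway were followed as lists written with earlier results of these data known. Among other immediate early genes, 18 of 21 tested were lower and 0 higher in Slc29a3-/- than in WT Ly6C hi cells, with a median log2 difference of -1.73 beside -0.14 over all genes. They included Nr4a1, a nuclear receptor needed for Ly6C low monocytes, at -1.83 (-2.86 to -0.81), and Ier2, at -0.90 (-1.62 to -0.18). Of the feedback inhibitors 9 of 10 were lower (median -1.20). Dusp1, a phosphatase that shuts off MAP kinases, had -5.04 (-7.08 to -3.00), and Zfp36, which destabilizes inflammatory mRNA, had -3.02 (-4.25 to -1.79). Of inducible target genes such as cytokines 10 of 13 were lower (median -1.33).

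The kinases and serum response factors upstream of these genes differed little. Of 14 tested, 1 was lower and 0 higher in that comparison, with a median of -0.17, near the median over all genes, and Srf had -0.16 (-0.56 to 0.24). Among related leucine zipper factors 6 of 11 were lower and 1 higher. Of 2 tested Egr corepressors, Nab2 was lower at -1.17 (-1.70 to -0.65). Of the 5 heat shock genes 1 was lower, and Hspa1a had -0.27 (-2.34 to 1.80).

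These lists depended on the WT libraries as the members did. Against WT replicate 4 alone, 1 of 19 other immediate early genes, 3 of 10 feedback inhibitors and 1 of 12 inducible targets were lower in Ly6C hi Slc29a3-/- cells, with medians of -0.40, -0.62 and -0.45 beside -0.16 over all genes. Dusp1 had 2248 to 2586 RPM in Ly6C hi WT replicates 1 to 3, 51.6 RPM in WT replicate 4, 21.6 to 34.6 RPM in Slc29a3-/- and 42.9 to 230.4 RPM in double mutant libraries. Zfp36 had 2583 to 2929 RPM, 286 RPM, 152 to 226 RPM and 227 to 673 RPM in the same order.

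**Figure D4:**
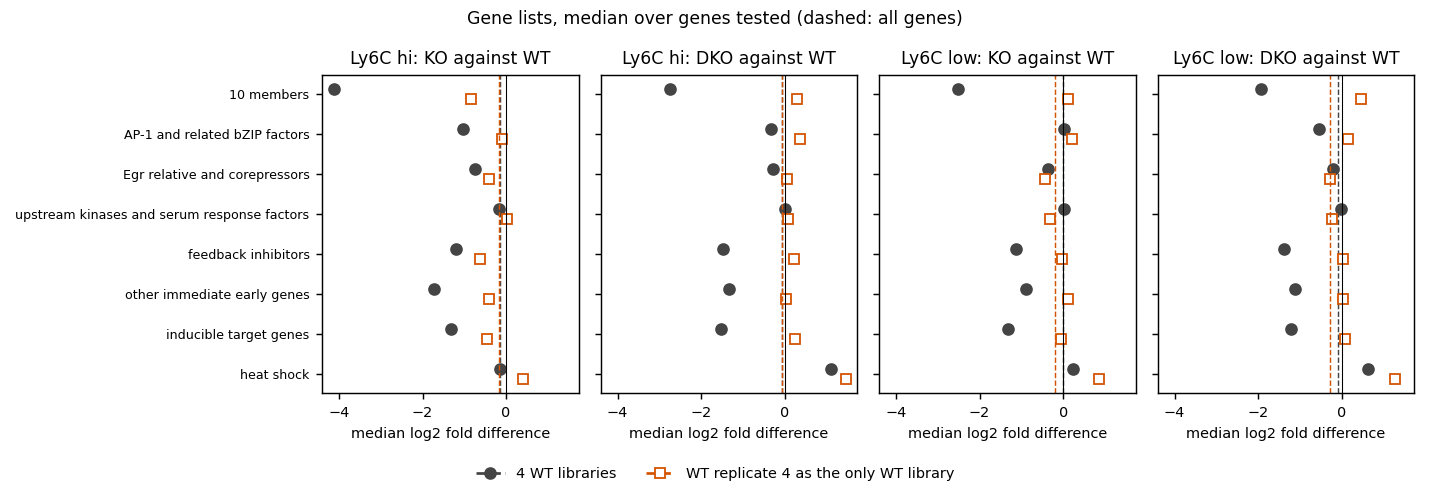
Median log2 fold difference over the tested genes of the 10 members and 7 gene lists, in the 4 comparisons of a mutant with WT (KO, Slc29a3-/-; DKO, Slc29a3-/- Tlr7-/-), with 4 WT libraries (circles) or WT replicate 4 as the only one (open squares). Dashed lines are the medians over all genes. The members, feedback inhibitors, other immediate early genes and inducible targets lie left of the dashed line with 4 WT libraries, and each of their squares lies to the right of its circle.

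Among Ly6C low cells, 10 of 20 other immediate early genes, 7 of 10 feedback inhibitors and 9 of 13 inducible targets were lower in Slc29a3-/- than in WT, against 7.05% of all genes, with medians of -0.90, -1.13 and -1.33. Against WT replicate 4 alone these counts were 1 of 19, 0 of 9 and 1 of 12. The Ly6C low double mutant had 14 of 20, 9 of 10 and 8 of 13 lower, against 14.6% of all genes, and the Ly6C hi double mutant 15 of 21, 6 of 10 and 9 of 13, against 9.44%. Against WT replicate 4 alone, 0 genes of these 3 lists were called lower in the double mutant of either subset. Between the 2 mutants in Ly6C hi cells 1 of 21 other immediate early genes was lower and 1 higher, against 11.9% of all genes called lower. Nr4a1 was lower in Slc29a3-/- cells at -1.15 (-2.18 to -0.12). Nab2, at -0.80 (-1.33 to -0.28, adjusted P = 0.0325), was lower too. The WT libraries entered the spread of that fit. Without WT replicates 1 to 3, other immediate early genes, feedback inhibitors and inducible targets had medians of -0.40, -0.62 and -0.46 between the mutants. The median over all genes was -0.11 there.

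Over the 24 libraries, the 5 genes with the highest Pearson correlation to Fos in log2(RPM + 1), among 7485 other genes with a mean of at least 10 RPM, were Csrnp1 (0.94), Snhg5 (0.93), Zfp36 (0.92), Cxcl2 (0.92) and Osm (0.91). For Egr1 they were Ppp1r15a (0.97), Zfp36 (0.97), Cxcl2 (0.97), Pim3 (0.96) and Klf6 (0.96). These values are a description: the points share the split between WT replicates 1 to 3 and the rest. Over the 18 libraries outside that set the same pairs had 0.66, 0.62, 0.58, 0.55 and 0.76 for Fos, and 0.87, 0.88, 0.58, 0.76 and 0.56 for Egr1. Among the members, Fos and Jun had 0.80 over 24 libraries and 0.12 over 18, and Fos and Fosb had 0.95 and 0.77. Cxcl2, an attractant of neutrophils, had 181 to 215 RPM in Ly6C hi WT replicates 1 to 3, 0 reads in WT replicate 4 and at most 0.882 RPM in the mutants of that subset.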

How the data were processed

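Total RNA (1 ng) was amplified with a kit that reads 1 amplicon per gene. The authors deposited a table of RPM values, and the submitters' notes name Torrent Suite (5.2.2) and its AmpliSeqRNA plug-in (5.2.0.3), with mm10 as the build; the study's methods also name STAR and HTSeq, and which step wrote the table is not given in the sources used here. Zeros, written as 0.0001, were set back to 0, and 27 names turned into dates were repaired. Libraries were grouped by label. The members and the gene lists were chosen with earlier results of these data known. Named genes were the 10 members, fixed examples from the lists (1 of which is not reported here) and the 5 genes most like Fos and Egr1.

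With limma 3.58.1 in R 4.3.3 (intensity trend), log2(RPM + 1) was fitted within each subset (12 libraries, 3 genotypes) for genotypes, and over all 24 libraries for subsets and interactions. Fold differences on this scale understate those of low genes. Low values were whole multiples of a step within 0.1 read, from which depth was inferred; the 3-read floor covers counting error only. Scripts were tested on simulated data. Alternatives were TMM and RLE scaling, other filters, a pseudocount of 0.1, no trend, other sample sets, a replicate block and each library left out. By the rule that every pair of the same number correlate above 0.1, replicate numbers met it only between WT subsets. Among WT replicates 1 to 3, libraries of different number correlated about as highly, so this rule could not show pairing. The replicate block was still fitted in every comparison as an alternative. It used genotype and number between subsets, and number alone between genotypes. Promoters came from RefSeq (GRCm38.p6), and windows of 8 of 10 members were searched, without Egr1 and Egr3. Figures used Python 3.11.15, pandas 2.3.3 and matplotlib 3.10.9.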

Additional observations from a re-analysis of the deposited data

Results flagged for a closer look

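In 15 cases 1 library of a group of 4 stood apart from the other 3 by Dixon's criterion at the 95% level, which chance meets in about 1 of 20 groups. WT replicate 4 was the lowest of its Ly6C hi group for Fos (145 RPM), Fosb (3.43), Jun (22.3), Junb (413), Egr1 (5.54) and Atf3 (74.4). In Ly6C low cells it was the lowest for Atf3 (49.0) and the highest for Fosl2 (704). The barcode of both libraries lay with those of the mutants, and the part of library preparation was not tested.

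Slc29a3-/- Tlr7-/- replicate 4 was the highest of its group for Jun (319 RPM) and Atf3 (273) in Ly6C hi cells and for Fos (401) and Egr1 (38.1) in Ly6C low cells, and had 0 RPM of Egr3 in Ly6C hi cells, the lowest value. The summed heat shock genes in that replicate were 2601 RPM in Ly6C hi and 3574 RPM in Ly6C low cells, and their part was not tested. Among Ly6C low Slc29a3-/- libraries, replicate 3 had the lowest Fos (29.6) and replicate 2 the highest Fosb (0.800).

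The interaction term of limma passed the unadjusted threshold for Fosl2 (-0.97 on the log2 scale, adjusted P = 0.12) and Junb (-1.11, adjusted P = 0.18) in the difference between Slc29a3-/- and WT. These are 2 of 10 members, near the 20.2% of all genes called, and both calls were lost with TMM or RLE scaling and with WT replicate 4 alone.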

How the results depend on the processing

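Where a refit in this section has no share of all genes beside its count, the count is no result about the members. Against WT, the counts of members called were 8 in every library-omission fit for Slc29a3-/- Ly6C hi cells and 7 for Ly6C low cells, and 7 to 8 and 5 to 7 for the double mutant. With WT replicate 4 alone they were 2, 1 (Egr1, higher), 0 and 0 in the order Ly6C hi Slc29a3-/-, Ly6C hi double mutant, Ly6C low Slc29a3-/-, Ly6C low double mutant, and with an adjusted P they were 1 and 4 in the Ly6C hi and Ly6C low double mutant. With WT replicate 4 alone the sign turned for Jun (0.54) and Egr1 (0.22) in Ly6C hi Slc29a3-/- cells; for Fos (0.65), Jun (1.53), Junb (0.16), Egr1 (1.25), Egr3 (0.19) and Atf3 (0.46) in the Ly6C hi double mutant; for Jun (0.25), Egr1 (0.16) and Atf3 (0.49) in Ly6C low Slc29a3-/- cells; and for Fos (0.86), Fosl2 (-0.34), Jun (0.85), Junb (0.0087), Egr1 (0.79) and Atf3 (0.46) in the Ly6C low double mutant.

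Between the mutants in Ly6C hi cells the count of 3 became 1 with TMM scaling, 1 with a stricter filter, 5 with only the 2 groups compared, 5 without WT replicates 1 to 3, 0 with an adjusted P, and 0 to 6 with 1 library left out. In Ly6C low cells it was 0 to 1, and Atf3 turned to -0.0133 with TMM and -0.0332 with RLE scaling. Between subsets in WT the count was 1 with WT replicate 4 alone, 3 with WT replicates 1 to 3 only (chosen after seeing the data) and 0 to 5 with 1 library left out, 5 only without Ly6C hi WT replicate 4. Jun turned to 0.27 with WT replicates 1 to 3 only, and Egr1 to -0.53 and Egr3 to -0.76 with WT replicate 4 alone. In Slc29a3-/- and double mutant cells it was 2 and 3 without WT replicates 1 to 3, against 37.3% and 31% of all genes. It was 0 to 1 in both with 1 library left out. Egr3 in the double mutant turned to -0.0400 with TMM, -0.0363 with RLE and -0.0453 with a pseudocount of 0.1.

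The Slc29a3-/- interaction with subset had 0 calls with TMM, RLE, WT replicate 4 alone or an adjusted P, 4 with WT replicates 1 to 3 only and 1 to 5 with 1 library left out (5 without Ly6C hi WT replicate 4). The double mutant interaction had 1 with no filter, no trend or WT replicates 1 to 3 only, and 0 to 3 with 1 library left out (3 without Ly6C hi WT replicate 4). The interaction of the 2 mutants had 1 with a pseudocount of 0.1, 2 without WT replicates 1 to 3 (near the 20.4% of all genes called), and 0 to 1 with 1 library left out. With the replicate block the counts were 4, 4 and 4 between subsets in WT, Slc29a3-/- and double mutant cells, and 4, 2 and 2 in the 3 interactions. The 6 genotype comparisons, blocked by number alone across mice of different genotype, had 8, 8, 2, 7, 7 and 0. In the WT subset fit 19.8% of all genes were called higher. For the other block fits the share of all genes is not given here, so those counts are no result about these genes. Without a block, 37.6% and 31.6% of all genes were called between subsets in Slc29a3-/- and double mutant cells. Outside WT, libraries of the same number in the 2 subsets correlated at -0.456 to 0.338. Whether the numbers pair the libraries is not known.

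With 1 library left out, signs turned in Ly6C low cells for Fosl2 (Slc29a3-/- against WT -0.11 to 0.0677, double mutant against WT -0.31 to 0.29) and, between the mutants, for Fosl2 (-0.35 to 0.26), Junb (-0.15 to 0.0164), Jund (-0.16 to 0.25) and Atf3 (-0.43 to 0.41). Between subsets they turned in WT for Fos (-0.76 to 1.96), Fosb (-0.53 to 2.79), Jun (-1.28 to 1.19), Egr1 (-1.12 to 1.77) and Atf3 (-0.26 to 1.83), in Slc29a3-/- for Egr3 (-0.16 to 0.20) and in the double mutant for Egr1 (-0.38 to 0.35) and Egr3 (-0.27 to 0.52). The cause of these changes was not tested. Count models (edgeR, DESeq2) were not run, since the table holds RPM. Egr2, Egr3 outside WT replicates 1 to 3 and Fosb in the mutants were limited by depth.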
